A study of Mus musculus with 4 samples.

Results

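The cells described here were T cells of 4T1 tumours in which neither the CD4 nor the CD8 coreceptor gene was detected. A barcode was a member when it held at least 300 genes and at most 15% mitochondrial unique molecular identifiers (UMIs, the counts of single transcript molecules). It further had to hold at least 2 UMIs of Cd3d and Cd3g together and 0 UMIs of Cd4, Cd8a, Cd8b1, Foxp3 and Ncr1. Less than 1.0% of its UMIs could come from the neutrophil genes S100a8 and S100a9 and less than 0.5% from the collagen genes Col1a1, Col1a2 and Col3a1. The members were thus chosen by the measured UMIs of these genes, whose levels in them are no finding. Of 33064 barcodes, 32133 passed the limits on genes and mitochondrial UMIs, and 291 of them were members, which was 0.906% (exact 95% binomial interval 0.805 to 1.02%). The study describes the same limits on genes and mitochondrial UMIs with a smaller number of cells after them, so the share of kept cells refers to the deposited barcodes. Members made up 26.8% (24.2 to 29.5%) of the 1086 T cells found with the same limits on Cd3d, Cd3g, Ncr1, neutrophil and collagen genes.

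All cells came from tumours of 4T1, a mouse mammary carcinoma line, which had been implanted as 1000000 cells at the flank of BALB/c females aged 6 to 8 weeks. The labels gave 2 samples to PBS and 1 to TIOs, the oncolytic nanosystem of the study, each injected into a vein on day 7. All animals, the PBS animals included, were exposed to 980 nm light at 1.0 W per square centimetre for 5 min daily from day 8 to day 10, and tumours were taken on day 13. The study states a lower light intensity for its tumour growth experiments and none in its description of the single-cell sequencing. The title of the remaining sample names PBS while its protocol names TIOs, and it was left unassigned. No genetic modification of the mice is named in the labels. No source used here says how many mice stand behind a sample, and cells were enriched by a sort for CD45, the leucocyte surface protein. Transcripts were counted by droplet-based single-cell RNA sequencing, and 4 libraries could be told apart by the suffix of their barcodes. No source used here links a library to a sample, so treatments were not compared, no p-value was computed, and each library is given as one of unknown treatment. Intervals throughout are exact binomial or Poisson 95% intervals and cover counting error only. Where intervals overlap, this does not show that the values are equal. Beside a count of 0, the limit given is 3 counts of the total, which bounds detection and not expression. The matrix held 355765099 UMIs in all, and libraries 1 to 4 held 108646352, 81369540, 69255999 and 96493208 of them. Across the libraries, 101 barcode sequences occurred in more than 1 library, among them that of 1 member, and no sequence was shared by 2 members.

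Conventional T cells carry a receptor of an alpha and a beta chain and keep either CD4 or CD8, the coreceptors that bind MHC molecules beside the receptor. T cells with a gamma and a delta chain mostly lack both coreceptors, often reside in tissues and include a branch that makes the cytokine IL-17A, which draws neutrophils. In droplet data a cell can also lack a coreceptor UMI because a scarce transcript was not captured, and Cd4 is such a transcript. Trdc encodes the constant part of the delta chain and Tcrg-C1, Tcrg-C2, Tcrg-C3 and Tcrg-C4 encode those of the gamma chains, while Trac, Trbc1 and Trbc2 encode those of the alpha and beta chains. None of these genes was used to choose the members.

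The gamma constant genes lie side by side and resemble each other, which bears on how far their counts can be separated. Trdc lies on the plus strand at chr14:54142851-54148868 and Trac, on the same strand, at chr14:54220521-54224206 (mm10, GENCODE vM21). Tcrg-C1 lies on the plus strand at chr13:19214103-19217024 and Tcrg-C2 on the minus strand at chr13:19304649-19307551. Tcrg-C3 lies at chr13:19260884-19263528 and Tcrg-C4 at chr13:19344558-19352756, both on the plus strand. The first 60 coding bases of each are given 5′ to 3′ along the transcript, with capitals at the bases that differ from Tcrg-C1.
Tcrg-C1: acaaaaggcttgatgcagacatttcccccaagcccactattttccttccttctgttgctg
Tcrg-C2: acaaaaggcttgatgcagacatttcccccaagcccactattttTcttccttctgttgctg
Tcrg-C3: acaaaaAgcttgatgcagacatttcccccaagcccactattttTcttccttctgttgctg
Tcrg-C4: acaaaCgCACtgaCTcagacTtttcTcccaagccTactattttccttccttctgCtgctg
Tcrg-C2 differed from Tcrg-C1 at 1 of these 60 bases, Tcrg-C3 at 2 and Tcrg-C4 at 10. Over the whole coding region the identity to Tcrg-C1 was 94.6%, 83.3% and 69.9% for Tcrg-C2, Tcrg-C3 and Tcrg-C4. The libraries were made by a protocol that reads transcript ends, and over the last 200 transcript bases Tcrg-C2 was identical to Tcrg-C1 at 94.5%. Reads of Tcrg-C1 and Tcrg-C2 could therefore have been split or dropped in the authors' counting, and their counts are uncertain against each other. Tcrg-C3 had 0 UMIs in members, which allows a UMI in up to 1.03% of the 291 cells.

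The 4 libraries contributed unequally. Libraries 1 to 4 held 86, 22, 136 and 47 members among 427, 89, 391 and 179 T cells. The share of T cells was 20.1% (16.4 to 24.3%) in library 1, 24.7% (16.2 to 35.0%) in library 2, 34.8% (30.1 to 39.7%) in library 3 and 26.3% (19.97 to 33.3%) in library 4. The intervals of libraries 1 and 3 do not overlap, while those of libraries 2 and 4 overlap with both. The libraries differed as much in their other T cells. CD8 T cells numbered 273, 4, 8 and 10 in libraries 1 to 4, and Foxp3-negative CD4 T cells numbered 29, 40, 174 and 103. Members were shallower than other T cells. Their median was 3194 UMIs per cell, against 4869 in CD8 T cells, 4824.5 in Foxp3-negative CD4 T cells and 3904.5 in Foxp3-positive T cells. The share of members among T cells was lower in deeper cells, at 66.7% (10 of 15 cells) under 1000 UMIs, 47.7% from 1000 to 2000, 34.0% from 2000 to 4000, 18.5% from 4000 to 8000 and 17.3% (37 of 214 cells) from 8000 UMIs.

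**Figure D1:**
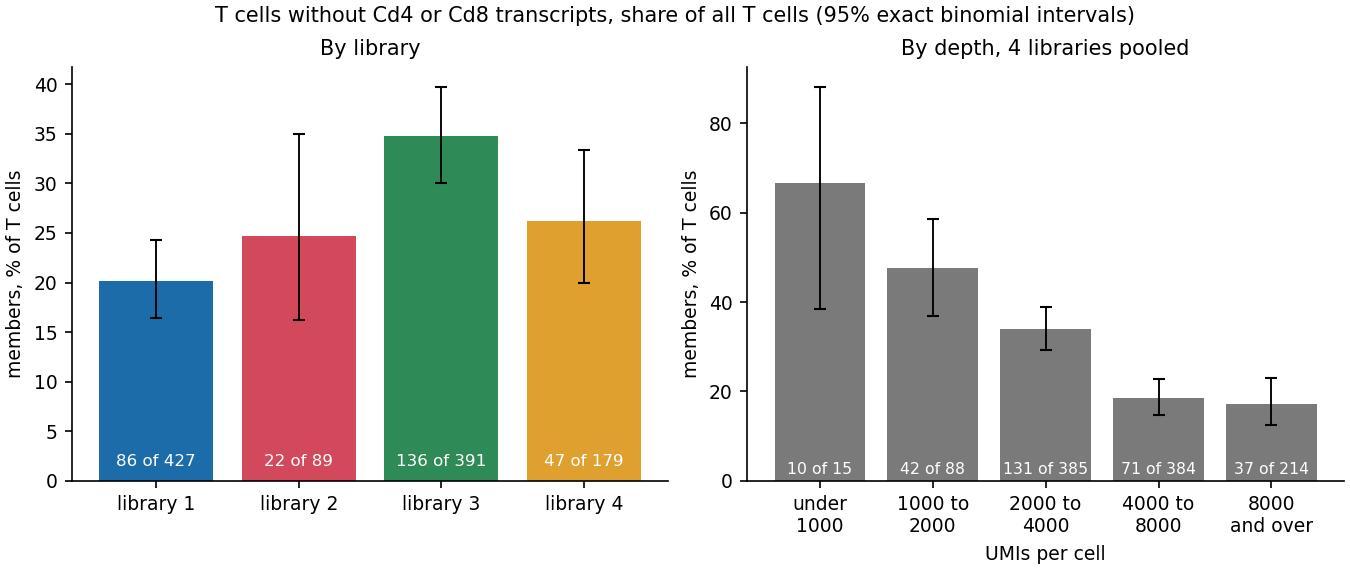
Share of T cells without a Cd4 or Cd8 UMI among all T cells (y axis, %), by library on the left and by UMIs per cell on the right, with counts in the bars and exact 95% binomial intervals as error bars. The share was highest in library 3 at 34.8% and was 66.7% in the shallowest and 17.3% in the deepest cells.

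The label was first checked against genes of T cells that the rule did not use. Cd3e, a further chain of the CD3 complex, was detected in 74.9% (69.5 to 79.8%) of members and Cd247, the zeta chain, in 36.4%, against 92.9% and 37.3% of CD8 T cells. Lat, an adaptor below the receptor, was detected in 65.3% of members. Markers of natural killer (NK) cells were uneven. Klrb1c was found in 4 members (1.37%) and Eomes in 1 member (0.344%), against 30.8% and 47.9% of 263 Ncr1-positive NK cells. Receptor genes that NK cells share with CD8 T cells were more frequent, with Klrk1 in 18.2% and Klrd1 in 8.93% of members, against 64.6% and 72.2% of NK cells and 72.5% and 82.0% of CD8 T cells. Fcer1g, a signalling chain of NK and myeloid receptors, was found in 27.1% of members, 92.4% of NK cells and 36.4% of Foxp3-negative CD4 T cells. Tyrobp, an adaptor of NK and myeloid receptors, was found in 31.3% of members, close to the 33.5% of Foxp3-negative CD4 T cells. In neutrophils, which should lack these receptor genes and held a median of 1944 UMIs, Trdc was detected in 0.0756% of 3970 cells and Trac in 0.353%. At the limit on Cd3d and Cd3g, 62 members held exactly 2 UMIs and 40 held 3, and 551 cells just outside held 1. Those just inside had Trdc in 9.68% and Trac in 32.3% of cells and a median of 2172.5 UMIs, and those outside in 1.09% and 5.44% at a median of 13458 UMIs. The 189 members with 4 or more UMIs of Cd3d and Cd3g had Trdc in 32.8% and Trac in 45.5%. Removed by other limits were 26 cells with Ncr1, of which 17 held Trdc, 31 cells with too many neutrophil transcripts and 8 with too many collagen transcripts.

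How many members could be CD4 T cells whose Cd4 was not captured was computed from cells known by another gene. Of 138 cells with Foxp3, a factor of regulatory CD4 T cells, and no Cd8 UMI, 69 held no Cd4 UMI, a missed share of 50% (41.4 to 58.6%). This share was 75.0%, 63.0%, 36.1% and 29.0% from the range of 1000 to 2000 UMIs to that of 8000 UMIs and over. Applied to the 346 Foxp3-negative cells with Cd4, a missed share of 50% gives 346 further cells (244 to 490). Its interval includes the 291 members found and lies above the 219 members without a Trdc UMI. A different reference gave a much smaller number. Of 120 cells with Cd40lg, the CD40 ligand of helper cells, 20 had no Cd4 UMI (16.7%, 10.5 to 24.6%), which gives 69.2 missed cells (40.5 to 113). The intervals of these estimates do not overlap, so the number of missed CD4 T cells depends on the reference cells. With Foxp3-positive cells as reference the computed numbers for libraries 1 to 4 were 63.8 (29.0 to 151), 17.5 (6.09 to 45.0), 164 (97.8 to 274) and 91.6 (30.7 to 267), beside 86, 22, 136 and 47 members, which lie within these intervals. Libraries 1 to 4 held 8, 16, 50 and 46 Cd40lg-positive cells, of which 2, 1, 12 and 5 held no Cd4 UMI. Not matched to members in depth, these cells gave 9.67 (0.954 to 54.1), 2.67 (0.0633 to 17.3), 54.9 (26.1 to 107) and 12.6 (3.87 to 31.8) missed cells. The members lie above these intervals in each library. Members without Trdc numbered 62, 17, 102 and 38, and those of libraries 2 and 3 lie within these intervals. For CD8 T cells the missed number was small. Cd8a was missed in 6.86% of cells with Cd8b1, and Cd8b1 in 6.52% of cells with Cd8a. If both were missed independently, 0.447% of CD8 T cells, or 1.33 cells, would hold neither. From 1000 to 2000 UMIs the same computation gave 22.2%, or 4 cells, which is more than the number pooled over depth. It rests there on 10 cells with Cd8b1 and 9 with Cd8a.

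**Figure D2:**
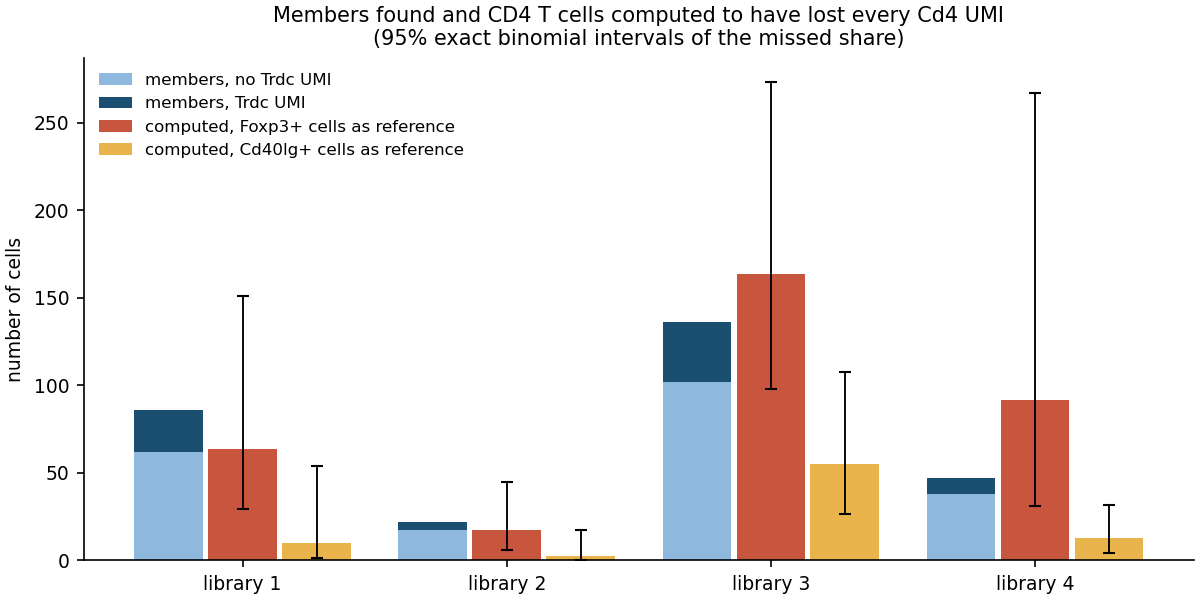
Number of cells (y axis) in each library. Stacked blue bars are members found, without and with a Trdc UMI, and the red and yellow bars are the CD4 T cells computed to hold no Cd4 UMI, with Foxp3-positive or Cd40lg-positive cells as reference and error bars from exact 95% binomial intervals of the missed share. In each library all members together lie within the interval of the Foxp3 reference and above that of the Cd40lg reference. Members without Trdc lie within the interval of the Cd40lg reference in libraries 2 and 3. Neither reference was matched to the members in depth.

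Of the receptor genes, Trdc marked a minority of the members that was nearly absent from the other T cells. The gene was detected in 72 of 291 members, 24.7% (19.9 to 30.1%). By library these were 24 of 86, 5 of 22, 34 of 136 and 9 of 47 members, or 27.9%, 22.7%, 25.0% and 19.1%. The 4 intervals overlap. In the other T cells the gene was found in 3 of 295 CD8 T cells (1.02%), 1 of 346 Foxp3-negative CD4 T cells (0.289%) and 1 of 138 Foxp3-positive cells (0.725%). Cells that came nearest to membership, with exactly 1 UMI of Cd4, Cd8a and Cd8b1 together, held Trdc in 1 of 165 cells (0.606%, 0.0153 to 3.33%) and Trac in 74.5%. When each cell was thinned to 1000 UMIs, which left out 10 members, Trdc was found in 18.1% (13.8 to 23.2%) of members, 0.341% of CD8 T cells and 0 of 344 Foxp3-negative CD4 T cells. Trdc had 593 UMIs in members, a median of 6 and up to 38 in a cell with any, and 63 of the 72 cells held 2 or more while the rest held 1. After thinning, the share with Trdc was 28.0%, 4.55%, 15.8% and 13.6% of members in libraries 1 to 4. Trdc was not particular to T cells, since 42.2% of NK cells held it (14.6% after thinning).

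Tcrg-C1 was found in 52 members, 17.9% (13.6 to 22.8%), by library in 22.1%, 22.7%, 14.0% and 19.1%. In CD8 T cells the share was 3.39%, in Foxp3-negative CD4 T cells 0.867%, in NK cells 1.52%, and among 138 Foxp3-positive cells none held it. After thinning, Tcrg-C1 was found in 7.12% of members and 1.37% of CD8 T cells. Pooled over libraries, Tcrg-C2 had a UMI in 8.93% (5.92 to 12.8%) of members and 31.9% (26.6 to 37.5%) of CD8 T cells. Tcrg-C4 was found in 10.3% of members and 13.6% of CD8 T cells. Of the 295 CD8 T cells, 273 lay in library 1, so these shares compare members mainly with the CD8 T cells of that library. Against the other T cells of each library, Tcrg-C2 was at 17.9, 10.7, 43.2 and 32.4 CPM (UMIs per 1000000 UMIs) in members of libraries 1 to 4 and at 115, 0, 3.72 and 0 CPM in other T cells. Tcrg-C4 was at 27.8, 35.7, 30.4 and 13.9 CPM in members and at 31.2, 0, 1.24 and 3.75 CPM in other T cells. Both genes were thus higher in members of libraries 2 to 4 and not in library 1, whereas Tcrg-C1 was higher in members of all 4 libraries. In library 2 the values of members rest on 1 cell for Tcrg-C2 and 5 cells for Tcrg-C4. They are lowered by 1 member of 168234 UMIs that is described below. Without it they were 26.8 CPM for Tcrg-C2 and 89.4 CPM for Tcrg-C4.

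Genes of the alpha-beta receptor were less frequent in members but far from absent. Trac was detected in 43.6% (37.9 to 49.6%) of members, against 81.0% of CD8 T cells, 80.9% of Foxp3-negative CD4 T cells and 78.3% (66.7 to 87.3%) of the Foxp3-positive cells without Cd4. At 1000 UMIs per cell the shares were 23.1% (18.3 to 28.5%), 33.8% (28.4 to 39.5%), 41.3% and 47.1%. Trbc2 was detected in 78.0% of members and 90.8% of Foxp3-negative CD4 T cells, and at equal depth in 54.8% and 59.6%, with overlapping intervals. Split by their transcripts, 72 members held Trdc, 198 held Trac, Trbc1 or Trbc2 but no Trdc (68.0%, 62.3 to 73.4%), and 21 held none of these genes (7.22%). Cd3e was found in 7 of the 21 cells without any receptor transcript. Among the 219 members without Trdc, Trac was found in 54.8% (47.9 to 61.5%) and after thinning in 30.5% (24.3 to 37.2%). The thinned share was below those of the CD4 T cells (41.3%, 36.0 to 46.7%) and of the Foxp3-positive cells without Cd4 (47.1%, 34.8 to 59.6%), with overlapping intervals.

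**Figure D3:**
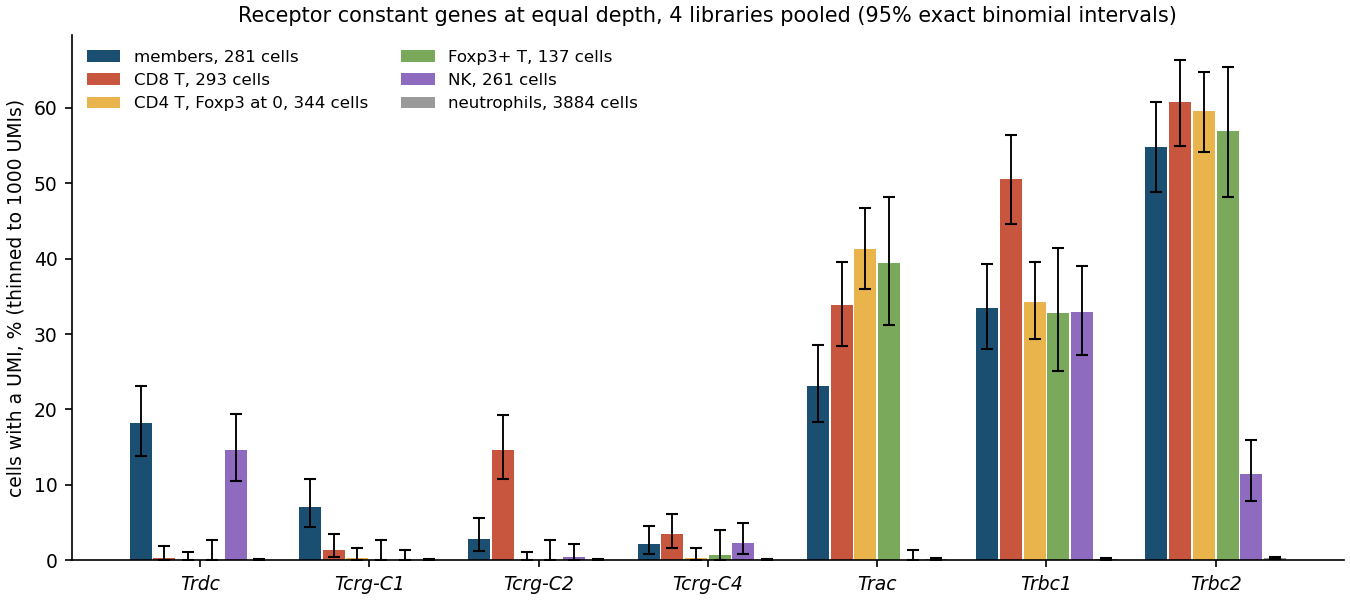
Share of cells with a UMI of each receptor constant gene (y axis, %) after every cell was thinned to 1000 UMIs, for members, CD8 T cells, Foxp3-negative CD4 T cells, Foxp3-positive T cells, NK cells and neutrophils, with exact 95% binomial intervals. Members stand above the other T cells for Trdc at 18.1% and Tcrg-C1 at 7.12%, and below them for Trac at 23.1%.

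Members with Trdc carried the other genes of gamma-delta cells together. Tcrg-C1 was found in 41 of the 72 Trdc-positive members (56.9%, 44.7 to 68.6%) and in 11 of the 219 without Trdc (5.02%, 2.53 to 8.81%). Tcrg-C2 was found in 29.2% and 2.28% and Tcrg-C4 in 27.8% and 4.57%. Trac was found in 7 of the 72 Trdc-positive members (9.72%, 4.00 to 19.0%), all 7 in library 3. Trbc2 was detected in 77.8% of members with Trdc and 78.1% of those without, and Trbc1 in 58.3% and 49.3%. At 1000 UMIs per cell the shares were 53.5% and 55.2% for Trbc2 and 28.2% and 35.2% for Trbc1, with overlapping intervals for both genes. Variable segments were rarely counted. Trdv4 was found in 14 members, all with Trdc, by library in 12, 1, 0 and 1, Trdv5 in 3 members, each of Trdv2-2, Tcrg-V4 and Tcrg-V6 in 2 and Tcrg-V1 in 1. Cd28, the costimulatory receptor, was found in 9.72% of Trdc-positive members and 58.9% of the others. Cd5, a brake on receptor signalling, was found in 4.17% and 26.9%, and Lck, the kinase that starts that signal, in 5.56% and 45.7%. Trdc-positive members held a median of 3921.5 UMIs against 2823 in the others. At 1000 UMIs per cell the shares were 5.63% and 32.4% for Cd28, 1.41% and 11.9% for Cd5 and 1.41% and 18.6% for Lck.

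Several genes of type 17 cells were detected mainly in the members with Trdc, while others were common in members without it as well. Il17a, the cytokine itself (plus strand, chr1:20730905-20734496), was detected in 40 of 72 Trdc-positive members (55.6%, 43.4 to 67.3%), 10 of 219 members without Trdc (4.57%) and 9 of 795 other T cells (1.13%). By library it was found in 16 of 24, 2 of 5, 16 of 34 and 6 of 9 Trdc-positive members. Members held 543 Il17a UMIs in 50 cells, and a single cell held 82 of them (15.1%). Il17f, its relative, was found in 13 members with and 1 member without Trdc. Blk, a Src-family kinase of B cells and of gamma-delta cells that make IL-17A, was found in 44 of 72 (61.1%) and 5 of 219 (2.28%). Sox13, a factor of the gamma-delta lineage, was found in 19.4% and 0.457% and Zbtb16, a factor of innate-like T cells, in 27.8% and 4.11%. Tmem176a and Tmem176b, membrane proteins found in type 17 lymphocytes and myeloid cells, were found in 75.0% and 80.6% of members with Trdc, but also in 54 (24.7%) and 68 (31.1%) of the 219 without it. Maf, a factor of type 17 and helper cells, was found in 55 of 72 (76.4%) and 103 of 219 (47.0%). Counting 7 genes together (Il17a, Il17f, Il23r, Blk, Sox13, Cd163l1 and 5830411N06Rik), at least 1 was detected in 93.1% (84.5 to 97.7%) of members with Trdc, and at least 2 in 72.2%. Among all members at least 1 was detected in 30.9% (25.7 to 36.6%), by library in 26.7%, 18.2%, 35.3% and 31.9%. In the other T cells of libraries 1 to 4 the share was 0.88%, 7.46%, 5.10% and 3.79%.

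The scavenger receptor genes Cd163l1 and 5830411N06Rik, listed by RefSeq also as Scart1 and Scart2, are neighbours on chromosome 7. The former spans chr7:140218267-140231145 and the latter chr7:140247284-140300736, both on the plus strand. They divided the Trdc-positive members, and the division ran with the library. Cd163l1 was found in 20 of 24 Trdc-positive members of library 1, 3 of 5 in library 2, 1 of 34 in library 3 and 3 of 9 in library 4. 5830411N06Rik was found in 0 of 24, 0 of 5, 28 of 34 and 4 of 9. Libraries 1 and 3 thus stood at opposite ends for both genes, and library 4 held cells of either kind. Only 1 Trdc-positive member held both, and 14 held neither. Among all members the genes were found in 29 and 48 cells and together in 2 cells, both in library 3. As the libraries are of unknown treatment, library, mouse and treatment cannot be told apart here. Neither gene was frequent in the other T cells, at 0.252% for Cd163l1 and 1.38% for 5830411N06Rik.

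Members with these genes differed in other transcripts. Trdv4 was found in 13 of 29 members with Cd163l1 (44.8%, 26.4 to 64.3%) and in 0 of 48 members with 5830411N06Rik, which allows a UMI in up to 6.25% of them. Trac was found in 0 of 29 and 17 of 48 (35.4%, 22.2 to 50.5%), and Tcrg-C2 in 6 of 29 (20.7%) and 16 of 48 (33.3%). Trdc was held by 27 of the 29 and 32 of the 48 cells. Among Trdc-positive members, Trac was found in 0 of 26 cells with Cd163l1 alone and 7 of 31 cells (22.6%, 9.59 to 41.1%) with 5830411N06Rik alone, and 0 of 26 allows a UMI in up to 11.5%. Tcrg-C2 was found in 5 of the 26 and 11 of the 31. Il17a was found in 20 of 29 (69.0%, 49.2 to 84.7%) and 22 of 48 (45.8%, 31.4 to 60.8%), so these intervals overlap. Among Trdc-positive members, S1pr1, which guides exit from tissue, was found in 0 of 26 cells with Cd163l1 alone and 9 of 31 cells (29.0%) with 5830411N06Rik alone. Ccr6, a chemokine receptor of type 17 cells, was found in 0 of 26 and 8 of 31 (25.8%). The epithelial gene Krt8 was found in 53.8% of the former and 0 of the latter, and it was found in 65.1% of the other T cells of library 1 and in none of those in library 3. S1pr1 was at 9.08 CPM in the other T cells of library 1 and at 219 CPM in those of library 3, and Ccr6 at 1.18 and 20.5 CPM. The differences in Krt8, S1pr1 and Ccr6 thus go with the library in other T cells too, and for Trdv4, Trac and Tcrg-C2 the part of the library was not tested.

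The start regions of these genes and of Il17a are given because the division of the Trdc-positive members rests on their transcripts. Each is the RefSeq promoter window of 300 bases on build GRCm38.p6, plus strand, running 5′ to 3′ at chr1:20730655-20730954 for Il17a, chr7:140218017-140218316 for Cd163l1 and chr7:140247051-140247350 for 5830411N06Rik. Capitals mark AGGTCA or its reverse complement TGACCT, the short core bound by many nuclear receptors, searched on both strands without overlap to another motif.
Il17a: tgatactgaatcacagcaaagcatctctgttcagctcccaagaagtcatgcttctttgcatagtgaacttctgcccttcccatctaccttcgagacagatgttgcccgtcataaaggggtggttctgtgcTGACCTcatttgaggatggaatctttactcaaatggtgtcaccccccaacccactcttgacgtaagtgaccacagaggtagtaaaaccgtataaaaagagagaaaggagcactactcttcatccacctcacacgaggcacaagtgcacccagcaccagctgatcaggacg
Cd163l1: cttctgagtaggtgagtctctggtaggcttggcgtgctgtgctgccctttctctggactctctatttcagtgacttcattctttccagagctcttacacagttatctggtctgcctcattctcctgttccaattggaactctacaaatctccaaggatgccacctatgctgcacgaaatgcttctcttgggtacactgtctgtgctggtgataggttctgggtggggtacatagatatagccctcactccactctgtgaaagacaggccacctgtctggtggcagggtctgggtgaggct
5830411N06Rik: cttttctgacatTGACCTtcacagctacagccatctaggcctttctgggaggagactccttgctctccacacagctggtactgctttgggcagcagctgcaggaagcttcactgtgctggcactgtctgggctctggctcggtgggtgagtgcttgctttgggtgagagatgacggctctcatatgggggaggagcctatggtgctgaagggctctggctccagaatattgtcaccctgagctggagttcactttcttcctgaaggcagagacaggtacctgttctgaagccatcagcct
The motif was found once in the window of Il17a, once in that of 5830411N06Rik and 0 times in that of Cd163l1. Of 32851 promoter windows of the same length, 16.3% held it. Aligned with each other, the windows of Cd163l1 and 5830411N06Rik had 143 identical bases, or 47.7% of their length. A match describes the letters only.

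**Figure D4:**
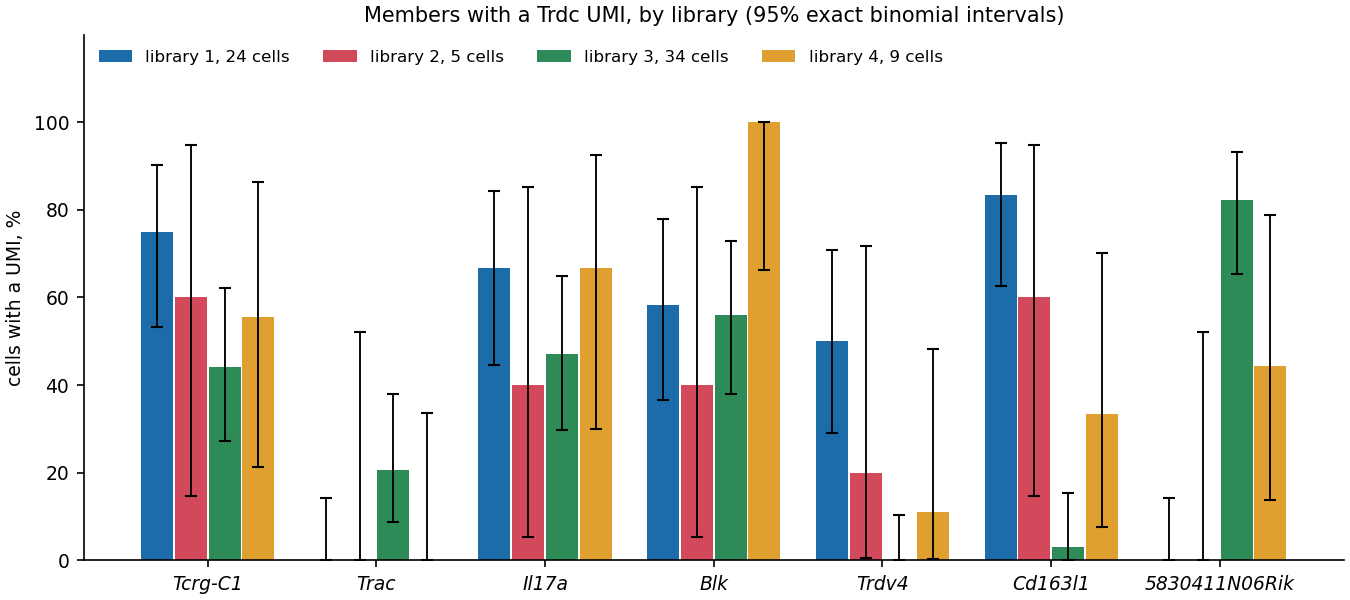
Share of Trdc-positive members with a UMI of each gene (y axis, %), by library, with exact 95% binomial intervals. Cd163l1 was found in 83.3% of these cells in library 1 and 2.94% in library 3, 5830411N06Rik in 0 and 82.4%, and Il17a and Blk in every library.

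The summed transcripts of members were compared with those of the 795 other T cells. A gene counted as higher or lower when the summed level, in CPM with 10 CPM added, differed by more than 2-fold in the pool and lay on the same side in all 4 libraries. Folds are on this scale, which understates the change of scarce genes. Of 11858 genes with at least 20 UMIs, 64 were higher (0.54%) and 22 lower (0.186%), 86 in all (0.725%). By the pooled fold alone 202 were higher (1.7%) and 56 lower (0.472%). The comparison group was mostly CD8 T cells in library 1 and mostly CD4 T cells in libraries 2 to 4, so pooled folds of CD8 genes come largely from library 1. One member of library 2 stood apart, with 168234 UMIs, 149 UMIs of the endothelial gene Cdh5, 43 of Kdr, 60 of Plvap, 2 of Cd3d and Cd3g and 1 of Trdc. Its Scrublet score was not among the highest 5%. It held 97.1% of the Esam, 70.9% of the Col4a2 and 77.5% of the Ecscr UMIs of all members, genes of vessels and basement membranes that were otherwise among the leading 12. Without it 57 genes were higher (0.485%) and 30 lower (0.255%), 62 of all these were shared with the first comparison, and those 3 genes were no longer higher.

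Trdc led the genes that were higher. Its level in members of libraries 1 to 4 was 678, 193, 221 and 278 CPM, and in other T cells 3.16, 0, 6.20 and 0 CPM, a pooled log2 fold of 4.85. Members lay far above other T cells in each library. Il17a was at 616, 49.99, 235 and 333 CPM in members and at 6.32, 8.74, 27.3 and 8.43 CPM in other T cells, a log2 fold of 3.93. The value of library 2 rests on few cells, and without the Cdh5-holding cell its level was 125 CPM and that of Trdc 474 CPM. Cd163l1 had a log2 fold of 3.09, Blk of 2.60 and Tcrg-C1 of 2.52. Tmem176a had 241 CPM in members and 50.6 CPM in other T cells, a log2 fold of 2.05 that ranged from 1.76 to 2.76 between libraries. The other leading genes that stayed higher without that cell were Actn2 (2.67), an actin crosslinker best known from muscle, Abi3bp (2.34), a matrix protein, and Krt83 (2.20), a hair keratin. 5830411N06Rik, with a pooled log2 fold of 3.42, was not called because it was at 0 in members of library 2.

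Nkg7, a cytotoxic granule protein, led the genes that were lower. It was at 151, 10.7, 46.4 and 83.3 CPM in members of libraries 1 to 4 and at 1479, 42.5, 79.3 and 191 CPM in other T cells, a pooled log2 fold of -2.99. The gap was widest in library 1, where the other T cells were mostly CD8. Without the Cdh5-holding cell, members of library 2 were at 26.8 CPM, a log2 fold of -0.51 there, beside -0.66 in library 3 and -1.11 in library 4. Gzma, a granzyme, had a log2 fold of -2.82, and was found in 11 of 291 members and 45 of 795 other T cells. Ifitm1, an interferon-induced membrane protein, had a log2 fold of -2.09, Ccl1, a chemokine, of -1.92, and Cst7, an inhibitor of granule proteases, of -1.81. The inhibitory receptor gene Lag3 was at -1.71 and the chemokine gene Ccl5 at -1.47. Thy1, a surface protein of most T cells, was at 83.5, 64.3, 171 and 278 CPM in members and at 352, 408, 364 and 440 CPM in other T cells, a log2 fold of -1.38. Without the Cdh5-holding cell it was at 161 CPM in members of library 2, a log2 fold of -1.29 there and -1.23 in the pool. Ctla4 had a pooled log2 fold of -1.30 but only -0.01 in library 4. The remaining 3 were Pglyrp1 (-1.29), a peptidoglycan-binding protein, Zbtb32 (-1.24), a transcription factor, and Gpr174 (-1.19), a lipid receptor.

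**Figure D5:**
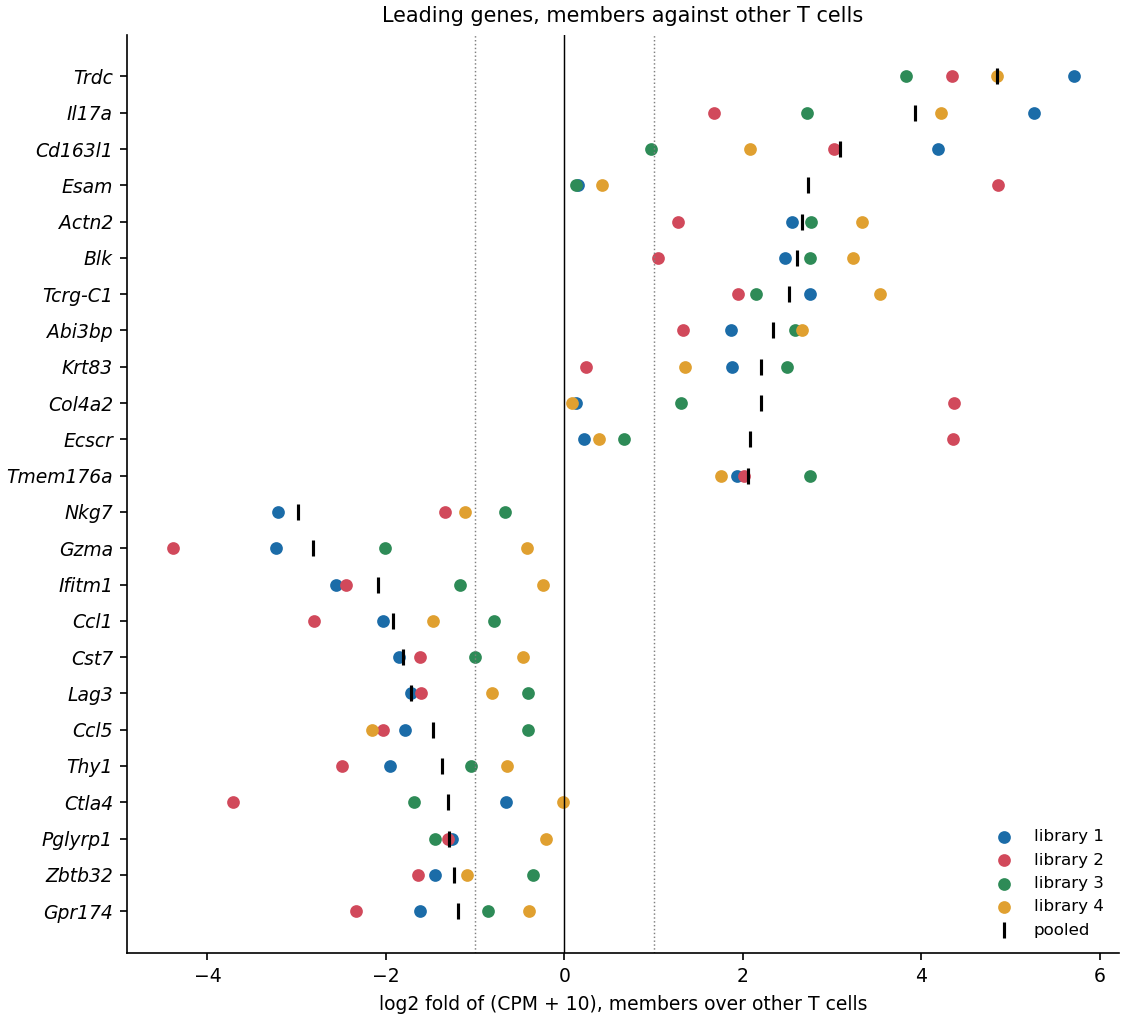
Log2 fold of members over other T cells (x axis, CPM with 10 added) for the 12 leading genes in each direction, with a coloured point for each library, a black bar for the pool and dotted lines at 2-fold. For Esam, Col4a2 and Ecscr the point of library 2 lies far above the rest, and it comes from a single cell with 149 Cdh5 UMIs.

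The genes were then grouped by list. Of 13 type 17 genes tested, 6 were higher (Blk, Cd163l1, Il17a, Sox13, Tmem176a and Tmem176b) and 0 lower, with a median log2 fold of 1.55 against 0.04 over all genes tested. Of 4 gamma-delta constant genes, Trdc and Tcrg-C1 were higher and 0 lower. Of 3 alpha-beta constant genes, Trac was lower, with a log2 fold of -1.12, but not without the Cdh5-holding cell (-0.97). Of 10 genes of the CD3 complex and proximal signalling, Lck (-1.16) and Thy1 were lower and 0 higher. Of 10 cytotoxic genes, 4 were lower (Ccl5, Ctsw, Gzma and Nkg7), with a median of -1.24, and Ctsw (-1.02) was not lower without that cell. Ctla4 was the gene that was lower among 6 regulatory T cell genes, a list on which the rule bears, since it kept Foxp3-positive cells out of the members but not out of the other T cells. Ctla4 was at 131 CPM in members, 184 CPM in Foxp3-negative CD4 T cells and 983 CPM in Foxp3-positive cells. Lag3 was the gene that was lower among 6 inhibitory receptor genes, and Zbtb16 (1.70) was the gene that was higher among 9 NK and NKT receptor genes. None was called in either direction among 6 type 1, 7 type 2 and ILC2, 7 naive and memory, 5 tissue residence, 6 proliferation and 5 growth and repair genes. The lists of other cell types had none called either, among 6 macrophage and monocyte, 5 tumour or epithelial, 4 endothelial, 2 neutrophil, 2 fibroblast, 1 dendritic cell and 1 B and plasma cell genes tested, and 0 genes of the mast cell and basophil list could be tested. Without the Cdh5-holding cell, Mki67 and Top2a of the proliferation list were lower. Some genes changed side with the library and were not called. Klrk1, an activating receptor shared by NK and CD8 T cells, had log2 folds of -2.11, 0.89, 1.49 and 2.12 in libraries 1 to 4. Without the Cdh5-holding cell its log2 fold in library 2 was 1.87. Maf had 2.08, -1.32, 0.11 and 0.95, with -0.06 in library 2 without the Cdh5-holding cell.

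Members without Trdc were set against the 346 Foxp3-negative CD4 and 138 Foxp3-positive T cells in the pool, with the same side required in the 3 libraries that held at least 20 cells of each. Of 10567 genes, 104 were higher (0.984%) and 44 lower (0.416%). Among those lower were Cd5 (log2 fold -1.25), Tnfrsf4 (-1.24), Tnfrsf9 (-1.34), Il2ra (-1.54) and Mki67 (-1.66), genes of receptor tuning, costimulation, growth factor sensing and division. In libraries 1, 3 and 4 the log2 folds were -1.21, -1.02 and -1.32 for Cd5, -1.93, -1.26 and -1.01 for Tnfrsf4, -1.63, -1.33 and -1.76 for Tnfrsf9, -0.75, -1.73 and -1.44 for Il2ra, and -0.21, -0.79 and -2.91 for Mki67. The pool also held library 2, which had too few members for a fold of its own. Mki67 was at 223 CPM in the pooled comparison cells, above their 66.6, 170 and 193 CPM in libraries 1, 3 and 4. The pooled value of Mki67 thus drew on library 2 as well as on library 4. The rule kept Foxp3-positive cells out of the members, while they made up 138 of the comparison cells, so these folds are partly fixed by the rule. Against the Foxp3-negative CD4 T cells alone, Cd5 was at 79.7 CPM in members without Trdc and 193 CPM in the CD4 T cells, Tnfrsf4 at 232 and 415 CPM, Mki67 at 63.8 and 146 CPM and Il2ra at 139 and 162 CPM, while Tnfrsf9 was not compared with them alone. Il2ra stood at 1072 CPM in Foxp3-positive cells, and most of its pooled difference thus lay with these. Among those higher were Lcn2 (2.73), an iron-binding protein of neutrophils and epithelium, Fn1 (2.09), a matrix protein, Tmem176b (2.09) and the chemokine gene Xcl1 (2.49), which was found in 7 members. The log2 folds in libraries 1, 3 and 4 were 2.37, 0.75 and 0.42 for Lcn2, 1.60, 1.07 and 2.07 for Fn1 and 1.38, 2.24 and 1.21 for Tmem176b. For Xcl1 they were 3.73, 0.89 and 0.94, and its level in these members was 122, 8.56 and 11.4 CPM. Epcam, an epithelial gene, passed the limits with a pooled log2 fold of 2.04, but its log2 folds within these libraries were 0.15, 0.02 and 0.01, and its level in members was 852, 4.28 and 5.70 CPM. Library 1, where its level was highest, held 62 of the 219 members, but 29 of the 346 CD4 and 32 of the 138 Foxp3-positive T cells. Median depth was 2823 UMIs in these members, and transcripts of other cell types moved with the comparison. Their part in it was not tested.

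Genes of other cell types were also counted in members. The tumour or epithelial list (Krt8, Krt18, Krt19, Epcam and Cldn4) summed to 4180, 64.3, 7.99 and 4.63 CPM in members of libraries 1 to 4 and to 2056, 39.97, 14.9 and 8.43 CPM in other T cells, with Krt18 the most abundant in the pool. The macrophage and monocyte list (Lyz2, Apoe, C1qa, C1qb, Csf1r and Adgre1) summed to 1165, 400, 326 and 4393 CPM in members and 1390, 202, 266 and 2091 CPM in other T cells, with Lyz2 the most abundant. For both lists the library with the highest level was the same in members and in other T cells. The sums of library 2 include the Cdh5-holding cell, and without it Lyz2 alone was at 501 CPM in members there. Of the endothelial list 4 of 4 genes were counted, at 1489 CPM in library 2, where 1 cell held every Cdh5 UMI of the members, and at 7.95, 33.6 and 69.4 CPM in libraries 1, 3 and 4, where Cdh5 and Plvap were at 0. The fibroblast list, which includes 3 genes of the rule, summed to 89.5, 1107, 1739 and 935 CPM in members and to 120, 1059, 1160 and 1481 CPM in other T cells. Of 5 B and plasma cell genes, Cd79b alone was counted. The neutrophil list, which includes 2 genes of the rule, summed to 430 CPM in members and 410 CPM in other T cells. At least 0.5% of the UMIs came from macrophage, epithelial or endothelial markers in 19 of 291 members and 33 of 795 other T cells. Of members, 22 (7.56%) were among the highest 5% of doublet scores of their library, against 7.92% of other T cells. Removal of the cells with at least 0.5% of such markers gave 99 genes past the limits against other T cells, 63 of them shared with the 86.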

How the data were processed

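The UMI counts were deposited as 1 table of unscaled whole numbers for 55450 genes and 33064 barcodes of 4 libraries, made with Cell Ranger, which aligned reads, called cells and counted UMIs. The submitters' processing notes name Cell Ranger 2.1.1 and the build mm10, whereas version 3.0.2 stands in the methods and 6.1.2 in the matrix header. No source used here states whether read depth was equalised between libraries. No other column or row of the series was used.

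The 4 libraries were treated as 1 pooled sample and, one by one, as libraries of unknown treatment. Kept cells had at least 300 genes and at most 15% of UMIs from 37 mitochondrial genes. Members, comparison cells and the 23 gene lists (152 genes) were chosen with earlier results of these data known. Other T cells were CD8 T cells (Cd8a or Cd8b1), Foxp3-negative CD4 T cells, Foxp3-positive T cells and 16 cells with both coreceptors. Neutrophils held at least 2 Csf3r UMIs and at least 1.0% of UMIs from S100a8 and S100a9. Thinning drew 1000 UMIs per cell without replacement (random seed 1). Levels are a gene's UMIs, summed over a group of cells, per 1000000 UMIs of these cells. The 12 genes of the rule were left out of the gene comparison. Named genes were those of the lists, every Trdv and Tcrg-V gene, and the 12 leading genes in each direction, mitochondrial, ribosomal, Gm and Rik symbols aside. Il5 and Il1rl1 together, the 7 type 17 genes counted together and the Cdh5-holding cell were chosen after their values were seen, as were the genes named from the comparison of members without Trdc. Doublets were kept, and Scrublet scores were computed per library in scanpy.

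The deposited counts limit the precision. A share of 0 allows up to 3 counts of the total. The fold calls, the thinning and the binomial intervals were tested on simulated data. For the fold calls, summed counts of libraries were simulated and not single cells. The computation of missed CD4 T cells was not part of that test. Alternatives were other limits on Cd3d and Cd3g, genes, mitochondrial UMIs and depth, thinning, removal of doublets, other added CPM and UMI minimums, and leaving out each library. Removal of cells with markers of other types, removal of the Cdh5-holding cell, and members without Trdc against cells with Cd4 or Foxp3 were added after seeing the data. Tools were Python 3.11.15, numpy 2.4.6, scipy 1.17.1, pandas 2.3.3, scanpy 1.11.5 and matplotlib 3.10.9. All coordinates are from GENCODE vM21 or the RefSeq promoter table, both on GRCm38 (mm10). Some genes are not reported here. Treatments were not compared, and no p-value was computed.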

Additional observations from a re-analysis of the deposited data

How the results depend on the processing

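The share of members among T cells was 49.5% with at least 1 UMI of Cd3d and Cd3g, 23.5% with at least 3, and 54.8% when cells were thinned to 1000 UMIs before the rule. Leaving out 1 library at a time gave 22.3% (without library 3) to 31.1% (without library 1). The share of members with Trdc was 9.26% with at least 1 UMI of Cd3d and Cd3g and 10.8% after thinning, and that with Trac was 18.6% and 31.0%. Leaving out a library gave 23.4% to 25.8% for Trdc and 40.6% to 45.4% for Trac. The number of genes past 2-fold, 86, was the least stable. It was 658 and 133 with at least 1 and 3 UMIs of Cd3d and Cd3g, 140 without the highest 5% of doublet scores, 148 with thinning before the rule, 138 with thinning of the chosen cells and 379 with 1 CPM added. Without a library it ran from 86 (without library 2, 58 of them shared) to 207, at 207 without library 1, 152 without library 3 and 178 without library 4. In these fits, with at least 3 UMIs and with thinning before the rule, 3 libraries had enough cells, so a gene had fewer conditions to meet and 2 choices changed together. For the other moves the cause was not tested. Of the 86 genes, 15 were past the limits with thinning before the rule, 33 with thinning of the chosen cells, 36 and 58 with at least 1 and 3 UMIs, 68 without the highest doublet scores and 86 with 1 CPM added. The computed number of missed CD4 T cells, pooled over depth, moved from 346 to 69.2 with Cd40lg-positive in place of Foxp3-positive cells, which differed in depth. A minimum of 500 genes, at most 10% mitochondrial UMIs and the removal of the Cdh5-holding cell moved none of the 4 results by more than its counting interval or 1.5 times. No paired analysis was possible because no library could be linked to a sample and no test was run. The members held a median of 3194 UMIs. Beyond the shares by depth and the thinning before the rule, the part of depth in a missing coreceptor UMI was not tested.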

Other observations

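A few members carried cytokines of type 2 cells. Il5, a growth factor of eosinophils, was found in 7 members, 6 of them in library 2, and all 7 held Il1rl1, the IL-33 receptor of type 2 innate lymphocytes, helper and regulatory T cells. Of these 7 cells, all 7 held Trbc2, 4 held Trbc1, 2 held Cd3e, 1 held Trdc, and 0 held Trac or Il13. Il13 was found in 8 other members, none with Trdc. In the other T cells Il5 was found in 0.503% and Il13 in 5.79%. Areg, a growth factor of epithelial repair, was found in 20.3% of members and 17.6% of other T cells, and in Trdc-positive members of libraries 1 to 4 at 1643, 74.1, 88.4 and 24.6 CPM. In other T cells of these libraries it was at 209, 149, 45.9 and 31.9 CPM, so it was highest in library 1 in both. The library 2 value of Trdc-positive members is lowered by the Cdh5-holding cell, which held 168234 of their 202507 UMIs. Without that cell, Areg was at 546 CPM in all members of library 2. The 74.1 CPM is thus not the level of the other Trdc-positive members there.

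Some genes of the tissue residence list were more frequent in members with Trdc. Cxcr6, a chemokine receptor of resident lymphocytes, was detected in 83.3% (72.7 to 91.1%) of Trdc-positive members and 37.0% (30.6 to 43.8%) of those without Trdc, and after thinning in 47.9% and 19.0%. Itgae, the integrin that binds epithelium, was at 45.8% and 18.3%, Cd69 at 79.2% and 57.5%, Rgs1 at 81.9% and 58.9%, and Itga1 at 2.78% and 3.20%, and Zfp683 was found in 0 of 72 and 2 of 219. Of other genes, Lef1, a factor of naive and memory cells, was at 5.56% and 28.3%. Il2ra was at 55.6% and 26.03%, and Tnfrsf4, the costimulatory receptor OX40, was found in 1 of 72 Trdc-positive members and in 45.2% of the others. Gzma and Lag3 were found in 0 of the 72 cells, which allows a UMI in up to 4.17% of them and in 11 and 10 of the 219 cells without Trdc. Trdc-positive members were deeper, with a median of 3921.5 UMIs against 2823. At 1000 UMIs per cell the shares with and without Trdc were 19.7% and 8.10% for Itgae, 64.8% and 33.8% for Cd69, 47.9% and 35.7% for Rgs1, 1.41% and 12.4% for Lef1, 28.2% and 14.3% for Il2ra and 0 and 27.6% for Tnfrsf4. The exact intervals overlap for Itgae, Rgs1 and Il2ra and are separate for Cxcr6, Cd69, Lef1 and Tnfrsf4. These subsets were split within the same cells, and the values are a description.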
